A study of Mus musculus with 12 samples.

Results

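Transforming growth factor beta (TGF-beta) signalling in the aorta was followed through 10 genes: the ligands Tgfb1, Tgfb2 and Tgfb3, the latent TGF-beta binding proteins Ltbp1 and Ltbp2, the receptors Tgfbr1 and Tgfbr2, the receptor-activated transducers Smad2 and Smad3, and the inhibitory Smad7. They were chosen by gene name among 34796 names on the array, and 17 probes carry those names. Of these probes 16 passed the filter on dim signals, so that all 10 genes were tested among 20026. The remaining probe, a second one for Ltbp1, was well above background on no array.

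RNA was measured on microarrays in aortas of adult male C57BL/6J mice on day 3. Each of the 12 mice had its own array, and the 4 treatment groups held 3 mice each. DMSO mice received the vehicle dimethylsulfoxide according to their treatment label. The titles of these samples begin with Pre, which the study uses elsewhere for mice before the challenge, so that it is not settled whether they were given vehicle for the same days as the others. Rapamycin mice received rapamycin, an inhibitor of the growth kinase mTOR, at 2 mg/kg/day in DMSO. BA+DMSO mice received the vehicle and a challenge that leads to aortic dissection within days: BAPN (beta-aminopropionitrile) at 150 mg/kg/day, an agent that stops collagen from being crosslinked, and AngII (angiotensin II) at 1 µg/kg/min. In BA+rapamycin mice the same challenge was combined with the drug. The labels name DMSO for the DMSO and BA+DMSO groups only, and the study gives DMSO as the solvent of rapamycin. The tissue was a length of aorta with its mixed cells.

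TGF-beta is secreted in a latent form that LTBP proteins anchor to the extracellular matrix, from which it has to be released. The free ligand joins the receptors TGFBR2 and TGFBR1, TGFBR1 phosphorylates SMAD2 and SMAD3, and these act on target genes together with SMAD4. SMAD7, itself induced by the pathway, acts back on the receptors. In the aorta the pathway is known for its part in matrix production, smooth muscle differentiation and inherited aneurysm.

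Sequences are shown for 3 probes that lie in coding sequence, since they say which piece of the mRNA each value counts. The Tgfb1 probe lies on mm9 chr7:26489877-26489936 (plus strand), the Tgfb2 probe on chr1:188449333-188449392 (minus strand) and the Tgfbr2 probe on chr9:115999496-115999555 (minus strand). The Tgfb1 and Tgfb2 probes encode the end of the mature ligand, and capitals mark the stop codon at the end of the Tgfbr2 probe.
Tgfb1: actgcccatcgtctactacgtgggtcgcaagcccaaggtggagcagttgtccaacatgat
Tgfb2: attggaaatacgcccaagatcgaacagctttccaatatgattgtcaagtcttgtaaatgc
Tgfbr2: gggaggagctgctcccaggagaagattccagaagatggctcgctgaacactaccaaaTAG

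The 250 bases upstream of the start site are shown for the 2 members that were called higher in both challenge comparisons below, Ltbp2 (GRCm38.p6 chr12:84876492-84876741, minus strand) and Tgfb1 (GRCm38.p6 chr7:25686752-25687001, plus strand). They come from RefSeq, whose table held 7 of the 10 members in 9 entries. Capitals mark CAGAC, the letters of the Smad box, and GGGCGG, the letters of the GC box, on either strand.
Ltbp2: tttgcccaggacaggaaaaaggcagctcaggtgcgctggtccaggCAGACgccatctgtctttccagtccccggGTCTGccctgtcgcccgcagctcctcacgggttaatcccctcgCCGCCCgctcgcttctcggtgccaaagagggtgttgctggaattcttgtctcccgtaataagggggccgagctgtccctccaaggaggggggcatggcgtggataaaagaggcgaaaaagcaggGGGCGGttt
Tgfb1: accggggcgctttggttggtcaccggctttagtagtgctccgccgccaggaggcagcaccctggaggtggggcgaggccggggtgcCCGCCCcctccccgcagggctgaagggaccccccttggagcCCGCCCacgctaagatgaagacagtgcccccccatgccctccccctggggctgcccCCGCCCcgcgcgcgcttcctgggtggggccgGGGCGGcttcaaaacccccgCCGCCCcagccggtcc

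The Ltbp2 window held 2 Smad boxes and 2 GC boxes, and the Tgfb1 window held 5 GC boxes and 0 Smad boxes. Among all 32851 windows of this length, 42.2% held a Smad box and 32.7% a GC box, so such matches are common and are given as a description only. Of the other members, Tgfb2 held 2 Smad boxes, 1 TATA box (TATAAA, found in 12.4% of all windows) and 0 GC boxes, and Tgfbr2 held 1 Smad box and 0 GC boxes.

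Every level below is the log2 of the signal minus that of the 75th percentile of its array, so that 0 is the brightness of that percentile, and a difference of 1 is 2-fold. A gene stands by its brightest tested probe. A difference was called when its limma p, adjusted over all 27801 probes tested, was under 0.05. Challenged mice had the dimmer arrays. The 75th percentile was 78.1 to 246.4 intensity units for BA+DMSO, 74.6 to 109.3 for BA+rapamycin, 221.5 to 279.8 for DMSO and 257.4 to 337.3 for rapamycin. BA+DMSO replicate 2 was the dimmest of its group. All 3 DMSO arrays and rapamycin replicate 1 lay on 1 slide and the other 8 arrays on the second, so slide and challenge can hardly be told apart in vehicle mice. The titles of 10 arrays also carry 1 of 5 dates, whose meaning they do not give, and those of BA+DMSO replicates 2 and 3 carry none. The date as a fixed block over these 10 arrays left BA+DMSO with 1 array, so it cannot decide which members differ in vehicle mice. The challenge differences there were 2.01 for Ltbp2, 0.85 for Tgfb1 and -0.58 for Tgfb3. Those of the Tgfbr1 probes, all lower, ran from -2.27 to -0.51. In mice on rapamycin Ltbp2 alone of the members kept its call, with a difference of 2.54. The smooth muscle markers fixed for the aorta, 8 in number, were well above background on every array. Erythroid markers were called higher under the challenge, 4 of 4 in vehicle mice (beside 10.4% of all genes) and 3 of 4 on rapamycin (beside 19.8%), and their part in the results was not tested.

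**Figure D1:**
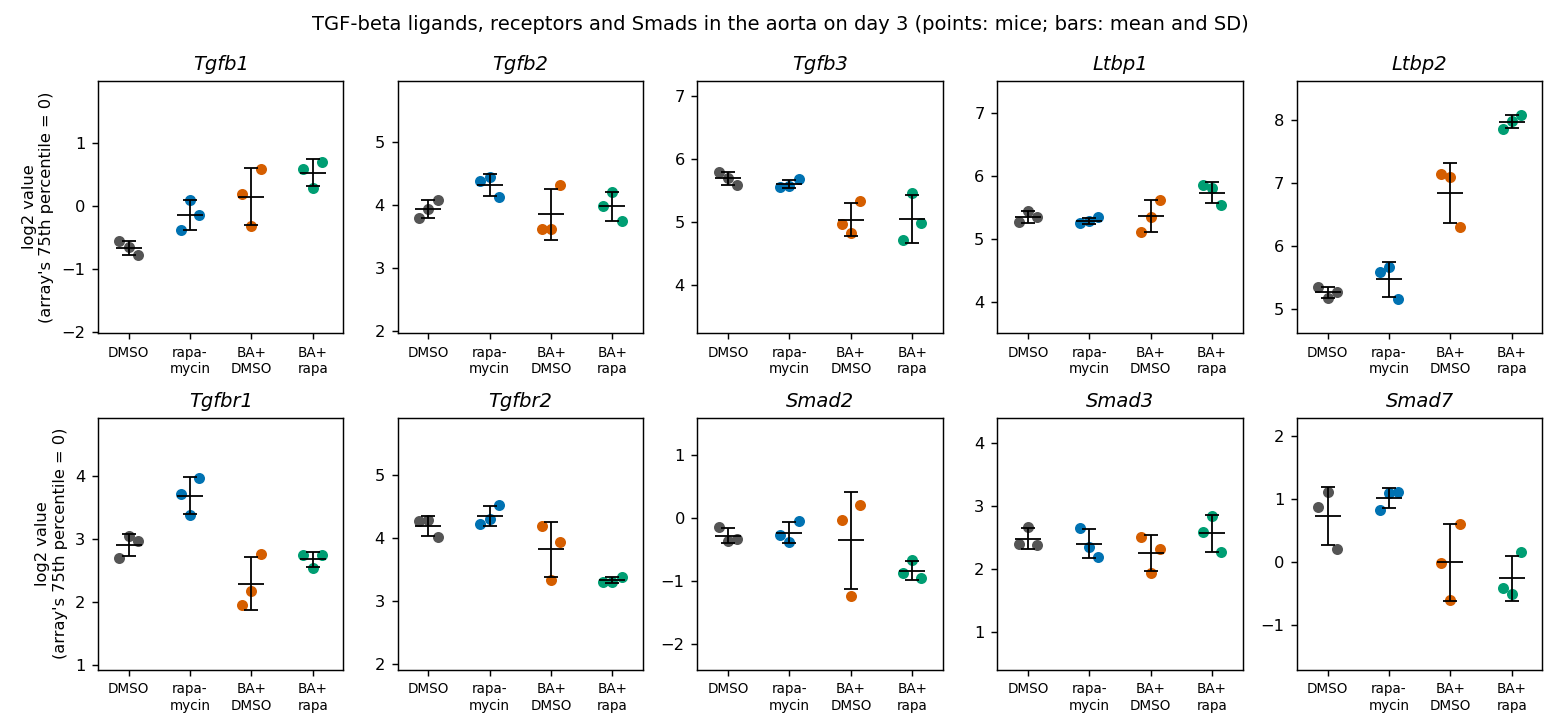
Level of each member on the array of each mouse, by group (y axis: log2 value with the 75th percentile of the array at 0; points: 3 mice per group; bars: mean and SD; all panels span the same height). The mean of Ltbp2 is 5.26 for DMSO, 6.84 for BA+DMSO and 7.97 for BA+rapamycin. The brighter Tgfbr2 probe, shown here, is lowest in BA+rapamycin, whereas the dimmer one is highest there.

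The challenge in vehicle mice (BA+DMSO minus DMSO) raised Ltbp2 and Tgfb1 and lowered Tgfb3. Thus 3 of 10 members were called, against 21.4% of all genes tested. The 2 members called higher stand beside 10.4% of all genes, and the 1 called lower beside 11%. The median difference of the members was -0.16, and that of all genes was -0.023. The challenge in mice on rapamycin (BA+rapamycin minus rapamycin) gave 5 of 10 members against 42.7% of all genes, with Tgfb1 and Ltbp2 higher (19.8% of all genes) and Tgfbr1, Tgfbr2 and Smad7 lower (22.9%). The members' median was -0.44 there, against -0.067 for all genes. Both shares are near those of all genes, so the number of calls does not set the members apart. The study's own rule, a p under 0.01 with a fold over 4 or under 0.25, was applied here with the unadjusted p. It took 0 members in vehicle mice, beside 697 of all 27801 probes tested. In mice on rapamycin it took only Ltbp2, beside 1428 of all probes. Leaving out single arrays moved the first count between 1 and 4. It was 1 without any 1 of the 3 DMSO arrays, without rapamycin replicate 3 or without BA+DMSO replicate 1, and 4 without BA+DMSO replicate 3. The second count was between 4 and 8, with 8 when BA+DMSO replicate 2 was left out. The number of all probes called changed too. In the first comparison it was 5697 with all arrays, 2051 to 4614 where the count was 1, and 10574 without BA+DMSO replicate 3. Without BA+DMSO replicate 2 it rose to 7555 while the count fell to 2. In the second comparison it was 11602 with all arrays and 15816 without BA+DMSO replicate 2.

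Rapamycin itself called 0 of 10 members in either setting. Under the challenge (BA+rapamycin minus BA+DMSO) limma called 0.305% of all genes, 0.0649% higher and 0.24% lower, and the 2 members with an unadjusted p under 0.05 were Ltbp2 and Tgfbr2. In unchallenged mice (rapamycin minus DMSO) limma called 0.00499% of all genes, which is 1 gene, and the 2 such members were Tgfb1 and Tgfbr1. The difference between both effects of rapamycin, the interaction, was called in 0% of genes, and in 1 member, Ltbp2, the unadjusted p was under 0.05. Across all genes 20.5%, 4.43% and 6.01% had an unadjusted p under 0.05 in these 3 comparisons. Comparisons that share a group are not independent of each other.

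**Figure D2:**
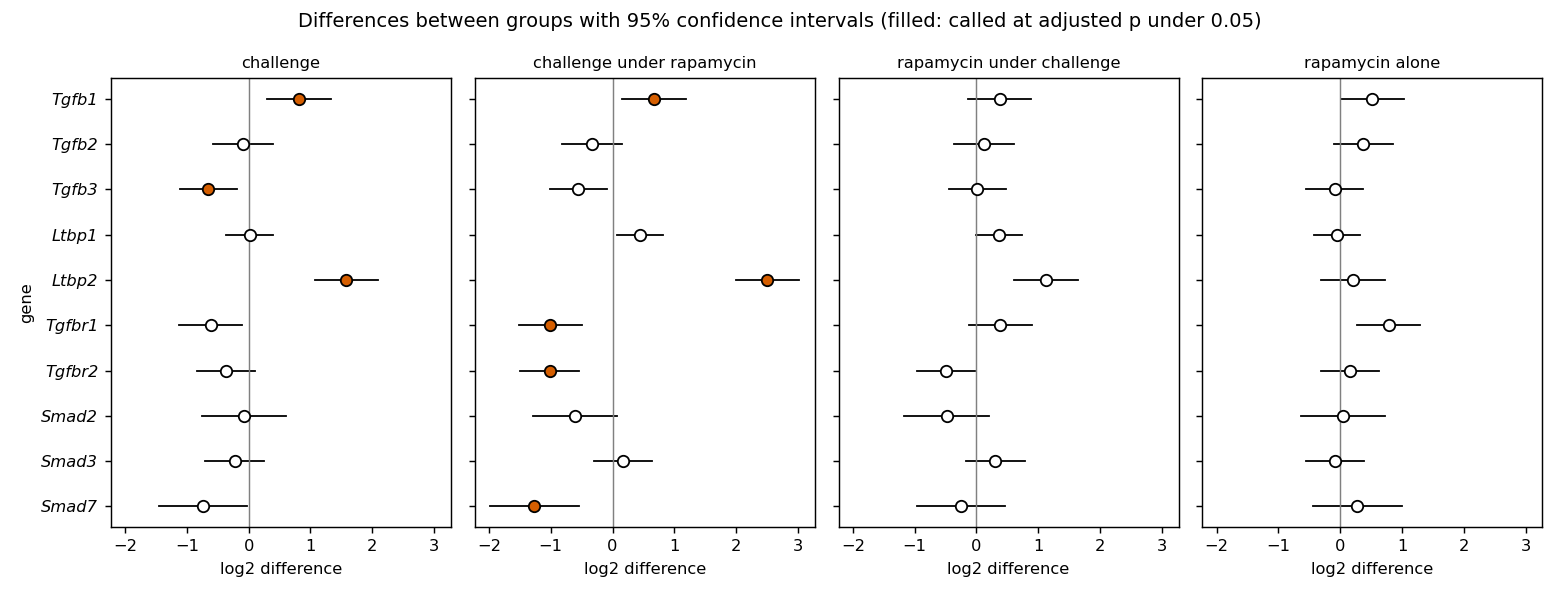
Difference between groups for each member (x axis: log2 difference; lines: 95% confidence intervals; filled points: called at an adjusted p under 0.05). Ltbp2 has the largest difference in the challenge comparisons, 1.58 on vehicle and 2.51 on rapamycin, and no point is filled in the comparisons of rapamycin.

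Of the ligands, Tgfb1, the isoform released by platelets and inflammatory cells as well as by the vessel wall, was the only one to rise. Its levels were -0.56, -0.67 and -0.78 in DMSO, -0.39, 0.09 and -0.15 in rapamycin, 0.18, -0.32 and 0.57 in BA+DMSO, and 0.59, 0.28 and 0.69 in BA+rapamycin. Every challenged mouse was above every unchallenged mouse given the same vehicle or drug, and the BA+DMSO mice were spread most widely. The challenge difference was 0.81 (SE 0.23, adjusted p 0.0328, 1.75-fold) in vehicle mice and 0.67 (SE 0.23, adjusted p 0.0412, 1.59-fold) in mice on rapamycin. Both calls are weak ones: each was lost under 12 of the alternatives, 6 and 7 of which left out a single array, with the difference then between 0.60 and 0.87 in vehicle mice and between 0.55 and 0.67 on rapamycin. Without BA+DMSO replicate 3 the former was 0.60 (adjusted p 0.0509), and without rapamycin replicate 1 the latter was 0.55 (adjusted p 0.136). Centring arrays on the median left a difference of only 0.09 on rapamycin, whereas array brightness as a covariate raised the differences to 1.30 (adjusted p 0.00265) in vehicle mice and 1.52 (adjusted p 0.0135) on rapamycin. With the slide as a fixed block the differences were 0.45 (adjusted p 0.721) in vehicle mice and 0.55 (adjusted p 0.136) on rapamycin. In unchallenged mice rapamycin differed from DMSO by 0.52 (95% confidence interval 0.0053 to 1.04, unadjusted p 0.0481, adjusted p 1). Within the second slide, the difference of challenged from unchallenged mice on rapamycin was 0.55 (adjusted p 0.227, not called), with 2 unchallenged arrays. The Tgfb1 probe was spotted 10 times per array, and the SD between its spots was 0.061 to 0.155.

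Platelet markers moved with Tgfb1 in part. Their summed level, in multiples of the 75th percentile over 8 markers, was 6.87 to 17.2 for DMSO and 20.2 to 42.7 for BA+DMSO. The markers called higher there included Pf4 (platelet factor 4). Their count is not given for vehicle mice, since 1 platelet marker is not reported here. On rapamycin the summed level was 10.4 to 12.7 without and 11.97 to 15.5 with the challenge. There 3 of 7 tested markers were called higher, Itga2b, Gp9 and Treml1, but not Pf4, beside 19.8% of all genes. Gp9 was well above background on 1 BA+rapamycin array and on 0 rapamycin arrays. Gp6 was well above background in no group. Of the macrophage markers, 8 of 8 were called higher in vehicle mice, beside 10.4% of all genes, and 6 of 8 in mice on rapamycin, beside 19.8%, and the sums ran from 23.6 to 42.6 for DMSO, 39.0 to 49.3 for rapamycin, 70.5 to 171.8 for BA+DMSO and 99.0 to 103.8 for BA+rapamycin. All 8 macrophage markers were above background on every array. Of 4 tested neutrophil markers 1 was called higher in each setting, beside 10.4% and 19.8% of all genes. Their sums over 7 markers were 205.8 to 257.2 for DMSO, 154.3 to 600.6 for BA+DMSO, 201.7 to 242 for rapamycin and 502.4 to 655.8 for BA+rapamycin. Cxcr2, a neutrophil marker, was well above background in no group. The part of these cell types in the rise of Tgfb1 was not tested. In a whole tissue a change in the number of cells and a change in RNA per cell cannot be told apart.

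Tgfb3, the ligand known from smooth muscle and fibroblasts, went the other way. Its probe (mm9 chr12:87397804-87397863, minus strand) stood at 5.81, 5.70 and 5.6 in DMSO, 5.56, 5.58 and 5.69 in rapamycin, 4.97, 4.83 and 5.33 in BA+DMSO, and 4.72, 5.47 and 4.98 in BA+rapamycin. The challenged mice were below the unchallenged ones in both settings with no overlap. The difference was -0.66 (SE 0.21, adjusted p 0.0474, 1.58-fold lower) in vehicle mice, and -0.55 (adjusted p 0.0539) in mice on rapamycin, which was not called, although 13 of its 32 alternatives did call it, with a range of -1.12 to -0.31 (adjusted p 0.00187 to 0.621). The call in vehicle mice is a weak one, since it was lost under 17 of 31 alternatives, among them the loss of any of 9 single arrays, all but BA+rapamycin replicates 1 and 2 and BA+DMSO replicate 3, although the difference stayed between -0.92 and -0.52. The spots of the Tgfb3 probe, also 10 per array, had an SD of 0.043 to 0.075. Smooth muscle markers had a median difference of -0.58 in vehicle mice, with 1 of 8 called, Lmod1, lower, beside 11% of all genes. On rapamycin the median was -0.35, with Des, Lmod1 and Myocd called lower (3 of 8, beside 22.9% of all genes) and Tagln higher. Their summed level was 2858 to 3080 for DMSO, 2460 to 4837 for BA+DMSO, 2598 to 3060 for rapamycin and 3484 to 4522 for BA+rapamycin, so on rapamycin it was higher in all challenged mice although the median was lower. Fibroblast markers had medians of 0.63 and 0.051, with 2 of 8 called higher and 0 lower in each setting, beside 10.4% and 19.8% of all genes. The part of either list in the fall of Tgfb3 was not tested.

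Tgfb2, the third ligand, gave no call. The coding-sequence probe stood at 3.80, 3.95 and 4.08 in DMSO, 4.39, 4.45 and 4.12 in rapamycin, 3.62, 3.62 and 4.32 in BA+DMSO, and 3.98, 4.21 and 3.76 in BA+rapamycin. The groups overlapped except that all rapamycin mice exceeded all DMSO mice, by 0.38 on average (95% interval -0.11 to 0.86). The challenge difference on rapamycin was -0.34 (adjusted p 0.232), and 4 of 32 alternatives called it lower, down to -0.91. The second Tgfb2 probe, further along the mRNA, also gave no call, and it was higher in BA+rapamycin than in BA+DMSO by 0.42 (unadjusted p 0.0466, adjusted p 0.243).

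Ltbp2 changed more than any other member in the challenge comparisons. The protein binds elastic microfibrils and, in spite of its name, is not known to bind latent TGF-beta as LTBP1 does. Levels of its probe (mm9 chr12:86124167-86124226, minus strand) were 5.34, 5.17 and 5.27 in DMSO and 5.58, 5.66 and 5.15 in rapamycin. Challenged mice reached 7.14, 7.09 and 6.29 on vehicle (BA+DMSO) and 7.86, 7.98 and 8.07 on rapamycin (BA+rapamycin). All 6 challenged mice lay above all 6 unchallenged mice, and all BA+rapamycin mice lay above all BA+DMSO mice.

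The challenge difference in Ltbp2 was 1.58 (SE 0.23, adjusted p 0.00165, 3.00-fold) in vehicle mice and 2.51 (SE 0.23, adjusted p 1.15e-04, 5.68-fold) in mice on rapamycin. The latter was called under all 32 alternatives, between 1.78 and 2.69, and it was 2.56 within the second slide. The former was lost with the slide as a fixed block (1.76, adjusted p 0.203), with the date as a fixed block (2.01, adjusted p 0.0637) and under array weights (1.32, adjusted p 0.206). Rapamycin under the challenge differed from BA+DMSO by 1.13 (SE 0.23, unadjusted p 5.38e-04, adjusted p 0.0687, 2.19-fold), which missed the threshold with all arrays. Without BA+DMSO replicate 2 it was 1.25 (adjusted p 0.00564), and over all 32 alternatives, 5 of which called it, it ran from 0.72 to 1.44 (adjusted p 0.00564 to 0.612). In unchallenged mice the difference of rapamycin from DMSO was 0.21 (95% interval -0.31 to 0.72). The interaction was 0.92 (SE 0.33, unadjusted p 0.0177, adjusted p 0.737), so a difference between both effects of rapamycin was not established.

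Ltbp1, which does carry latent TGF-beta, gave no call. The values of its probe (mm9 chr17:75790530-75790589, plus strand) were 5.26, 5.44 and 5.34 in DMSO, 5.24, 5.28 and 5.34 in rapamycin, 5.11, 5.35 and 5.62 in BA+DMSO, and 5.85, 5.80 and 5.54 in BA+rapamycin. The BA+rapamycin mice were above the rapamycin mice with no overlap, by 0.44 (SE 0.17, adjusted p 0.0558, not called). It was called under 13 of 32 alternatives, among them the loss of any 1 of the 3 BA+DMSO arrays, which enter this comparison only through the shared spread. The difference ran from -0.13 to 0.65 over the alternatives (adjusted p 0.00566 to 0.984), with a change of sign under 2, median scaling and normexp background correction. In vehicle mice the challenge difference was 0.016 (95% interval -0.36 to 0.39).

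Among the receptors, Tgfbr1, the kinase that phosphorylates Smads, was lower in challenged than in unchallenged mice on rapamycin. Its brightest probe (mm9 chr4:47427736-47427795, near the 3′ end of the mRNA) stood at 2.69, 3.04 and 2.97 in DMSO, 3.71, 3.38 and 3.96 in rapamycin, 1.94, 2.17 and 2.75 in BA+DMSO, and 2.74, 2.53 and 2.74 in BA+rapamycin. All rapamycin mice exceeded all others. The challenge difference on rapamycin was -1.01 (SE 0.23, adjusted p 0.0073, 2.01-fold lower), and in vehicle mice it was -0.61 (adjusted p 0.0847, not called), or -0.85 (adjusted p 0.00948) without BA+DMSO replicate 3. The latter comparison was called lower under 5 of 31 alternatives, among them the slide as a random block (-0.62, adjusted p 0.019). With array brightness as a covariate the former was -0.42 (adjusted p 0.474). The former call was also lost within the second slide, where the difference was -1.0 (adjusted p 0.0694), and with the date as a fixed block (-0.62, adjusted p 0.299).

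The 4 probes of Tgfbr1 had 1 feature in common. All were higher in rapamycin than in DMSO mice with no overlap of the groups, by 0.78 to 1.34, but none was called, and the smallest adjusted p was 0.537. The probes read the same gene in the same mice, so they are not separate results. The share of all probes without overlap was not counted. The dimmest probe was well above background on only 2 of 3 DMSO arrays. Both kinds of array weights did call all 4 higher, with adjusted p from 0.00379 to 0.0413. All probes called in this comparison then rose from 1 to 1512 with array weights and to 535 with the gene-by-gene kind. The step was thus a general one. Rapamycin replicate 1, the rapamycin array that shared a slide with the DMSO arrays, lay 0.80 to 1.57 above their mean. Between the 2 DMSO and 2 rapamycin arrays whose titles share a date, the differences were 0.67 to 1.35. Both checks use arrays of the comparison above, so their direction was fixed by it and only their sizes are new. The 2 probes on the full-length mRNA were both called lower in the challenge on rapamycin, the second by -1.30 (adjusted p 0.0208). That second call was lost without rapamycin replicate 2 or 3 or BA+rapamycin replicate 2 or 3, with differences of -1.30 to -1.14, and within the second slide (-1.36, adjusted p 0.0972). With array brightness as a covariate it was -0.25 (adjusted p 0.829). Over 32 alternatives the difference of the brightest probe ran from -1.58 to -0.42 (adjusted p 3.06e-04 to 0.474). The remaining 2, at chr4:47395833-47395892 and chr4:47374114-47374173, differed by -0.45 and -0.67 with no call. The last of these was not well above background on any BA+rapamycin array, and its difference changed with the processing. It was called lower under 8 of 30 alternatives, down to -1.26, and normexp background correction turned it to 0.52 (adjusted p 0.0193).

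**Figure D3:**
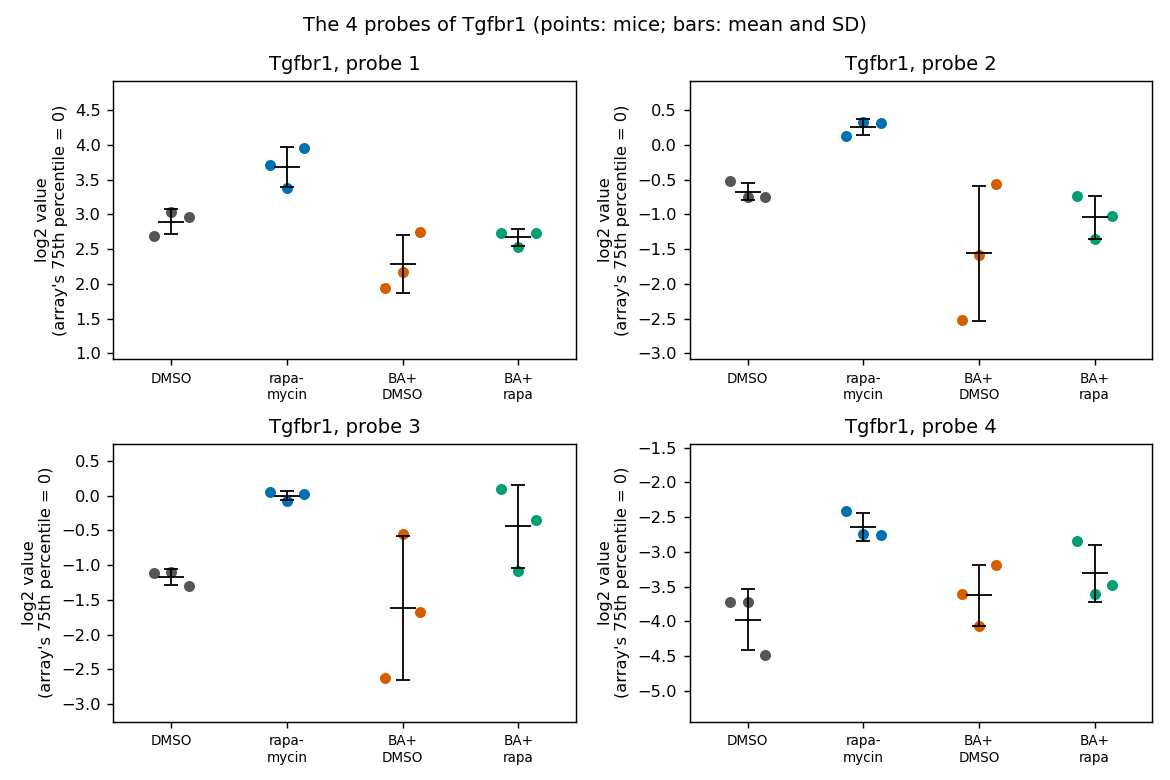
The 4 probes of Tgfbr1, from the brightest (probe 1) to the dimmest (probe 4), on the arrays of the 4 groups (y axis: log2 value with the 75th percentile of the array at 0; points: 3 mice per group; bars: mean and SD). Rapamycin mice lie above DMSO mice in every panel, by 0.78 for probe 1 and 1.34 for probe 4.

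Tgfbr2, the receptor that binds the ligand first, gave opposite answers from its 2 probes. The brighter one (mm9 chr9:115997155-115997214) lies beyond the stop codon, at base 4386 of the mRNA. It stood at 4.27, 4.30 and 4.01 in DMSO, 4.23, 4.30 and 4.53 in rapamycin, 4.19, 3.34 and 3.94 in BA+DMSO, and 3.31, 3.31 and 3.38 in BA+rapamycin. All BA+rapamycin mice were below all unchallenged mice, and so were BA+DMSO replicates 2 and 3. The challenge difference on rapamycin was -1.02 (SE 0.21, adjusted p 0.00498, 2.03-fold lower), and in vehicle mice it was -0.37 (adjusted p 0.243, not called).

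The dimmer Tgfbr2 probe, printed above with its stop codon and starting at base 2045, rose where the other fell. Its values were 0.03, 0.43 and 0.77 in DMSO, 0.42, 0.52 and -0.12 in rapamycin, 1.12, 2.32 and 0.02 in BA+DMSO, and 1.73, 1.75 and 1.56 in BA+rapamycin. The challenge difference on rapamycin was 1.41 (SE 0.46, adjusted p 0.0303, 2.66-fold higher). Leaving out any 1 of the 6 arrays compared ended this call, with differences of 1.22 to 1.53. The difference of the coding-end probe from the distal probe was -4.08 ± 0.50 in rapamycin and -1.65 ± 0.15 in BA+rapamycin (mean ± SD, n = 3), a shift of 2.43 (two-sided exact permutation p 0.1, the smallest that 3 against 3 allow). In vehicle mice the shift was 1.11, from -3.78 ± 0.50 to -2.67 ± 1.49 (exact permutation p 0.3). The direction reported for Tgfbr2 thus depends on the probe, and the mean of both gave 0.20 (adjusted p 0.457).

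The gap between both Tgfbr2 probes moved with the brightness of the array as well as with the challenge. It was -1.02 on BA+DMSO replicate 2, with a 75th percentile of 78.1, and -3.92 on BA+DMSO replicate 3, with 246.4. With brightness as a covariate, the challenge difference on rapamycin was -0.47 (adjusted p 0.371) for the distal probe and -0.61 (adjusted p 0.296) for the coding-end probe, which is a change of sign. The distal probe kept its call under 29 of 32 alternatives, and with the date as a fixed block it was -1.15 (adjusted p 0.0697). The part of array brightness in these results was not tested further.

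**Figure D4:**
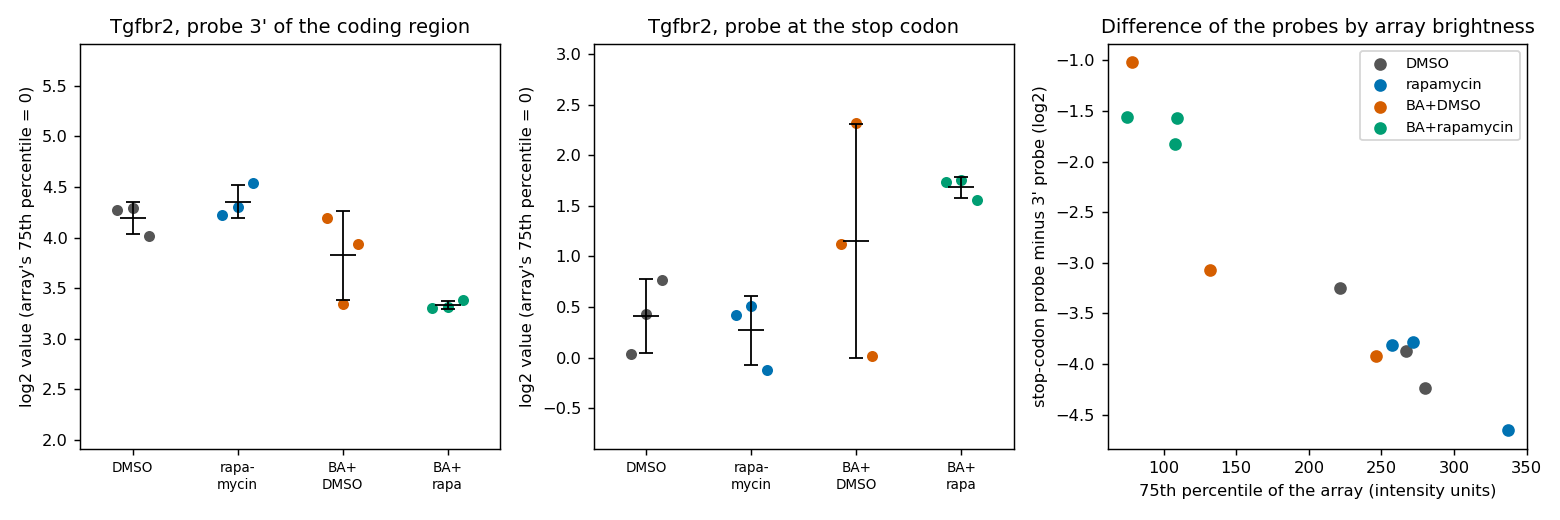
Both probes of Tgfbr2 by group (left and middle; y axis: log2 value; points: 3 mice per group; bars: mean and SD), and their difference against the 75th percentile of each array (right; x axis: intensity units; colours: groups). The distal probe falls to 3.33 and the coding-end probe rises to 1.68 in BA+rapamycin, and the difference runs from -1.02 on a dim array to -4.65 on the brightest.

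The Smads that carry the signal inward showed no call for Smad2 and Smad3. Smad2 stood at -0.14, -0.37 and -0.34 in DMSO, -0.26, -0.39 and -0.05 in rapamycin, -0.04, -1.23 and 0.21 in BA+DMSO, and -0.88, -0.67 and -0.96 in BA+rapamycin. BA+DMSO replicate 2 stood far below its fellows. Rapamycin under the challenge differed by -0.48 (adjusted p 0.359) with all arrays, and by -0.92 (adjusted p 0.00416) without that replicate. BA+rapamycin mice were below rapamycin mice without overlap, by -0.60 (adjusted p 0.134, and 0.00574 without BA+DMSO replicate 2). This difference was called under 6 of 32 alternatives, down to -1.18, and turned to 0.47 (adjusted p 0.485) with array brightness as a covariate. Smad3 (mm9 chr9:63494574-63494633, minus strand) stayed between 1.95 and 2.85 on all 12 arrays, and its challenge difference was -0.23 (95% interval -0.70 to 0.25) in vehicle mice and 0.17 (95% interval -0.31 to 0.64) in mice on rapamycin. A second Smad3 probe gave no call either.

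Smad7, the feedback inhibitor, was lower in challenged mice on rapamycin. Its values were 0.87, 1.12 and 0.22 in DMSO, 0.83, 1.09 and 1.12 in rapamycin, -0.02, -0.60 and 0.61 in BA+DMSO, and -0.41, -0.50 and 0.16 in BA+rapamycin. The BA+rapamycin mice did not overlap the rapamycin mice, whereas BA+DMSO and DMSO did overlap. The differences were -1.26 (SE 0.33, adjusted p 0.012, 2.40-fold lower) on rapamycin and -0.74 (adjusted p 0.132, not called) on vehicle, the latter being -1.04 (adjusted p 0.023) without BA+DMSO replicate 3. The former was -1.36 within the second slide (adjusted p 0.0534), and with array brightness as a covariate it was -0.04 (adjusted p 0.961). With the date as a fixed block it was -1.15 (adjusted p 0.189). The other 29 of 32 alternatives kept the call, and the largest of these differences was -1.84. It is the member whose value depended most on that covariate among those called lower.

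Leaving out BA+DMSO replicate 2 changed the comparison of rapamycin under the challenge from 0 members to 3, Ltbp2 higher and Smad2 and the distal Tgfbr2 probe lower. Of the second probes, the coding-end Tgfbr2 probe was then called higher, by 1.11 (adjusted p 0.0262), and so was the third Tgfbr1 probe, by 1.71 (adjusted p 0.00615). In the interaction it gave 2 members, Tgfbr2 and Smad2, while the number of all probes called there went from 0 to 3058. This array was the dimmest of its group and its correlation with its fellows across probes was 0.953 and 0.912. Of all probes, 11092 were called without it in the comparison of rapamycin under the challenge and 78 with it, so the step from 0 to 3 members went with a general one.

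The levels closest in shape over the 12 arrays were found as the smallest root mean square difference of centred log2 values among 20025 other genes, as a description. For Ltbp2 the closest named gene was Fbln2, another protein of elastic microfibrils, at 0.216. For Tgfb1 they were Gm13777 at 0.188 and Apbb2 at 0.202. Tgfb3 was closest to Zfand2a at 0.136, Exoc6 at 0.140 and Adss at 0.140, and Tgfbr1 to Gltscr2 at 0.162, Pfdn5 at 0.241 and Hip1r at 0.243. The distal Tgfbr2 probe was closest to Parg at 0.101, Dpysl2 at 0.103 and Mfsd6 at 0.110, and Smad7 to 2310061J03Rik at 0.188, Ankrd40 at 0.210 and Ppm1d at 0.212.

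The surrounding pathway was covered by 93 other tested genes in 6 lists. In vehicle mice the challenge called 30 of them (32.3%), 17 higher and 13 lower, beside 21.4% of all genes, and on rapamycin 47 (50.5%), 22 higher and 25 lower, beside 42.7%. Rapamycin called 0 of them under the challenge and 0 without it.

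Genes of ligand release and latency had 4 of 13 called in vehicle mice (30.8%, beside 21.4% of all genes) and 6 of 13 on rapamycin (46.2%, beside 42.7%). The genes named are examples from each list. Thbs1, thrombospondin 1, an activator of latent TGF-beta, rose by 2.11 (adjusted p 0.00222) on vehicle and by 1.74 (adjusted p 0.00334) on rapamycin. Itgb1, an integrin chain, rose by 0.67 and 1.31, and Mmp2, a matrix protease, rose by 0.91 on vehicle. Lrrc32, which holds latent TGF-beta on the cell surface, rose by 1.84 on rapamycin (adjusted p 0.00104) and Itgav, an integrin chain, by 0.78, while Itgb5, another one, fell by 0.71 (adjusted p 0.00778). Ltbp4, the relative of Ltbp2 that takes part in elastic fibre assembly, fell by 1.05 on vehicle (adjusted p 0.0162) and by 0.82 on rapamycin, opposite to Ltbp2.

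Of 13 other ligands of the superfamily, 30.8% were called on vehicle and 46.2% on rapamycin, again beside 21.4% and 42.7% of all genes. Bmp4, Gdf5 and Gdf6 were called higher in vehicle mice, by 0.88, 1.60 and 2.07, and Inhbb lower, by -1.52. The same 4 were called in mice on rapamycin, together with Bmp1, a protease, higher by 1.20, and Bmp6, lower by -0.90.

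Of 11 other receptors, 3 were called lower and 1 higher in vehicle mice, beside 11% and 10.4% of all genes, and 4 lower and 1 higher on rapamycin, beside 22.9% and 19.8%. Tgfbr3, the co-receptor that presents the ligand to Tgfbr2, fell by 1.23 on vehicle (adjusted p 8.3e-04) and by 1.24 on rapamycin (adjusted p 4.85e-04). Bmpr1a, a receptor for bone morphogenetic proteins, fell by 1.55 and 1.95, and Acvr2a by 0.86 and 0.90. Endoglin (Eng), a co-receptor of endothelial cells, rose by 0.79 and 0.68. Of 8 endothelial markers 3 were called higher in vehicle mice, beside 10.4% of all genes. On rapamycin 1 of these markers was called higher and 2 lower, beside 19.8% and 22.9% of all genes. Their sums were 56.7 to 72.3 for DMSO, 86.5 to 109 for BA+DMSO, 62.4 to 97.8 for rapamycin and 80.4 to 132 for BA+rapamycin, and their part in the rise of Eng was not tested. Bmpr1b was called lower on rapamycin only, by -1.38, and a difference between both settings was not called.

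The other Smads were called lower where they were called at all. In vehicle mice Smad5 fell by 0.59, Smad6, the inhibitor of bone morphogenetic protein signals, by 1.15, and Smad9 by 2.47, where only 1 of 3 BA+DMSO arrays measured Smad9 well above background. On rapamycin Smad1 fell by 1.29, Smad4, the shared partner of the signalling Smads, by 0.46 and Smad5 by 0.65. Smad9 was at least 4.99-fold lower there (adjusted p 0.00124), as no BA+rapamycin array measured it above background. These are 3 and 4 of 5 genes, all lower, beside 11% and 22.9% of all genes, and with 5 genes nothing further is read from the list.

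**Figure D5:**
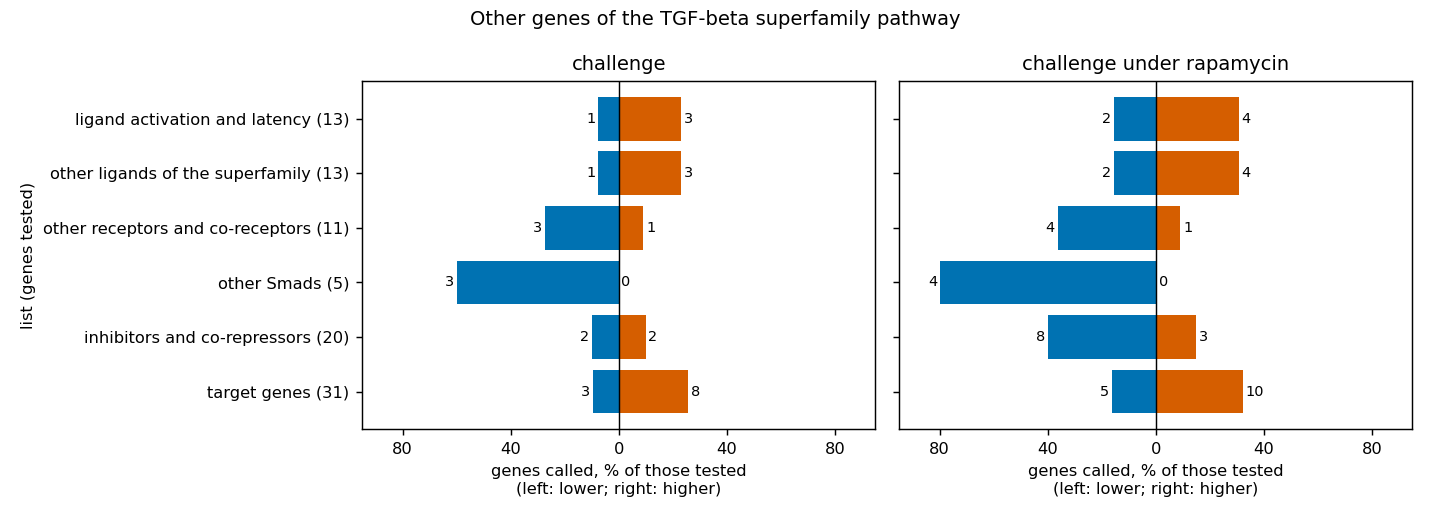
Genes of the surrounding pathway called in the challenge comparisons, by list (x axis: percent of the tested genes of the list, lower to the left and higher to the right; numbers: genes called). In the list of other Smads, 3 and 4 of 5 genes are called lower and 0 higher.

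Inhibitors of the pathway went in both directions, with 2 higher and 2 lower of 20 on vehicle (20%, beside 21.4% of all genes), and 3 higher and 8 lower on rapamycin (beside 19.8% and 22.9%). Fst (follistatin), which binds activins, rose by 1.96 and 1.62, and Nog (noggin), which binds bone morphogenetic proteins, by 1.51 and 2.16. Nedd4l, a ubiquitin ligase for Smads, fell by 0.93 and 1.08.

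Of 31 known target genes, 8 were called higher and 3 lower on vehicle (beside 10.4% and 11% of all genes), and 10 higher and 5 lower on rapamycin (beside 19.8% and 22.9%). Timp1, an inhibitor of matrix proteases, rose by 4.05 (adjusted p 1.17e-04, 16.6-fold) on vehicle and by 4.55 (23.4-fold) on rapamycin. Tnc (tenascin C) rose by 2.08 and 3.00, and Snai1 by 2.06 and 1.77. Col1a1 was called on rapamycin, by 1.57. Nox4 fell by 1.48 and 2.75 and Id2 by 1.33 and 1.83, and Cyr61 fell by 2.72 on vehicle. Several of these genes answer to other signals too, and the list says nothing of which signal moved them.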

How the data were processed

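RNA of 12 aortas, 3 in each of 4 groups taken from the treatment labels, was labelled with Cy3 and hybridised by the authors to 1-colour Agilent mouse arrays. Per the file headers, the scanner images went through Feature Extraction (10.7.1.1 in the headers, 9.5.1.1 in the submitters' processing notes) and probes are placed on mm9. The deposited processed signal is a background-subtracted intensity on a linear scale, and the spot flags for background, saturation and outliers are deposited as 0 or 1. The deposited matrix holds an intensity too, which matched quantile-normalized processed signals (correlation 0.9999). Here the signal was put on the log2 scale, outlier spots were left out, spots of a probe were averaged and the array's 75th percentile was subtracted. Probes with at least 0.5 of their spots well above background on all arrays of 1 or more groups were tested (27801 of 55681, 6 having no value on some array) in one limma model (version 3.58.1, R 4.3.3) with a mean for each group. Tests were two-sided with Benjamini-Hochberg adjustment within each comparison. The number of arrays limits the precision. Values of 12 separate mice stand for replicates, numbered in order of deposition.

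The members and gene lists were chosen with earlier results of these data known. All members and their tested probes are named, and for each list and comparison up to 4 genes called higher and 4 called lower with the largest differences could be named. Symbols are those of the array design, and 1 platelet marker is not reported here. The alternatives were other scalings, background correction, filters, slide, title date and brightness terms, variance models, array weights, 1 mean over the probes of a gene and leaving out each array. The fit was tested on simulated data before use.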

Additional observations from a re-analysis of the deposited data

Results flagged for a closer look

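In 2 members all mice on rapamycin lay to 1 side of the mean of the matching group without rapamycin. That side was opposite without and with the challenge. The mice are not paired, and the values of the groups compared overlapped in both members. The share of all genes that meet this rule was not counted. For the distal Tgfbr2 probe the mean difference was 0.16 in unchallenged mice and -0.49 in challenged mice. For the coding-end probe of Tgfbr2 it went the other way, -0.14 and 0.53. For Ltbp1 it was -0.058 and 0.37. The interaction of limma was -0.65 for Tgfbr2 (unadjusted p 0.0548, adjusted p 0.737) and 0.43 for Ltbp1 (unadjusted p 0.103, adjusted p 0.737), so neither difference between both effects was established. Groups of 3 were not searched for single outlying arrays.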

How the results depend on the processing

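No paired analysis was possible because replicate numbers only follow the order of deposition. The dates in the titles were used as a block after seeing the data, over 10 arrays that leave BA+DMSO with 1, assumed to vary like the rest. Under the challenge in vehicle mice, 3 members became 1 with median scaling, with no filter or with only the groups compared, and 0 with the slide as a fixed block, with the date as a fixed block, with array weights or by the study's rule. Rapamycin under the challenge went from 0 to 1 with the percentile over detected probes or with trended robust variances, to 4 with the date as a random block and to 5 with gene-by-gene array weights. Rapamycin alone went from 0 to 1, Tgfbr1, with either kind of array weights, and the interaction from 0 to 1 with the gene-by-gene kind. All probes called in rapamycin alone went from 1 to 1512 with array weights and to 535 with the gene-by-gene kind. In the interaction they went from 0 to 929. The number of all probes called moved along: from 5697 to 15 with the slide block in vehicle mice, and from 78 to 4603 and 7094 with the random date block and the gene-by-gene weights in rapamycin under the challenge. The challenge on rapamycin went from 5 to 2 on the second slide alone or with the brightness covariate. It went to 1 with the date as a fixed block or by the study's rule. All probes called there fell from 11602 to 3268, 1786, 3625 and 1428, in that order. The count of members went to 8 with the date as a random block and to 9 with either kind of weights. All probes called then rose to 16639 with the random date block, 18256 with array weights and 17545 with the gene-by-gene kind. Leaving out 1 array gave 1 to 4, 0 to 3, 0 to 0, 4 to 8 and 0 to 2 members for the challenge, rapamycin under the challenge, rapamycin alone, the challenge on rapamycin and the interaction. The gene-by-gene weights were added after seeing the data, because the default weights stopped before they converged. For the 10 differences of single probes that were called, 68 of 315 alternatives ended the call, 245 left it and its direction in place and 2 turned the sign, both for Tgfbr2 (0.20 as a mean of probes and -0.61 with brightness). One uncalled difference turned and was then called (0.52 for the fourth Tgfbr1 probe with normexp), and 151 turns of sign had no call on either side. The cause was not tested. Median scaling moved the median of all probes from -0.08 to -0.66 in the challenge on rapamycin and from -0.04 to -0.31 in the challenge on vehicle. Signal over background limits the fourth Tgfbr1 probe, the second Smad3 probe and Smad9.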
